A study of Mus musculus with 20 samples.

Results

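Neurog2, Atoh7, Olig2, Neurod1, Neurod2, Neurod4 and Bhlhe22 are 7 genes for basic helix-loop-helix (bHLH) transcription factors of the proneural and neural differentiation families. They were taken by name from the 23260 genes of the count table, and all 7 were present. Their unique molecular identifiers (UMIs, 1 per captured transcript molecule) were summed per library within each cell type named by the authors. They were also scored as present or absent in single cells of the type that the authors call Neurogenics. The series comprises 20 libraries and 79009 cells from cultured retina of wildtype CD1 mice. All groups share explant culture, electroporation and sorting for GFP. Each of the ages P2 and P5 (postnatal days 2 and 5) has 4 control libraries with the GFP construct alone, 2 libraries with a MEIS1 construct, 2 with a MEIS2 construct and 2 with a 50:50 combination. MEIS1 and MEIS2 are TALE homeodomain factors, and the series title asks how their overexpression in late progenitors affects temporal patterning and neurogenesis.

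The labels disagree with each other in places. The design text names pCAGIG plasmids with NR2F1 and NR2F2 instead of MEIS1 and MEIS2, and gives 2 or 5 days as the length of treatment, not as an age. Age and length of treatment therefore cannot be told apart between P2 and P5. Below, age stands for this difference as a whole. The treatment tag names MEIS1 in all single-construct P2 libraries and MEIS2 in all single-construct P5 libraries. Titles were followed, and transcript levels in Neurogenics went with them, in CPM (UMIs per 1000000 UMIs of the type). Meis1 had 2948 and 2492 CPM in the P2 MEIS1 and 2084 and 2005 CPM in the P5 MEIS1 libraries, beside 109 to 305 CPM in P2 and 125.8 to 173 CPM in P5 controls. Meis2 had 1871 and 1755 CPM in the P2 MEIS2 and 751 and 675 CPM in the P5 MEIS2 libraries, beside 251 to 573 CPM and 96.7 to 312 CPM in controls. The labels do not say whether the libraries of a group came from separate animals or cultures, so p-values measure the spread between these libraries, which may be partly technical. Electroporation marks only the cells that took up the plasmid, and all 79009 deposited cells held at least 1 GFP UMI.

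Proneural bHLH proteins bind DNA as dimers with the widely expressed E proteins Tcf3, Tcf4 and Tcf12, at E-box sites with the core CANNTG. In the retina they act as progenitors leave the cell cycle: Neurog2, Atoh7 and Olig2 come first, in dividing or newly postmitotic cells, and Neurod1, Neurod2, Neurod4 and Bhlhe22 act in differentiating neurons. Atoh7 is best known for competence to form ganglion cells, which are made early. Neurod1 and Neurod4 are known in photoreceptor, amacrine and bipolar development, and Bhlhe22 in bipolar and amacrine subtypes. Id and Hes proteins oppose them, Id proteins by binding E proteins and Hes proteins as repressors downstream of Notch.

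Promoter sequence is shown for 4 members, as RefSeq gives it on GRCm38, because of the members that fell with age in Neurogenics, Atoh7 and Neurod1 have an E-box there and Olig2 has none, and because Neurod2 has a match to the sequence that MEIS proteins bind. The windows start 250 bases before the RefSeq start and end before the first annotated transcribed base of the strand. Entries were matched for 6 of 7 members, all but Bhlhe22. Capitals mark each CANNTG on either strand. The Atoh7 window lies at chr10:63099535-63099650 (plus strand), the Neurod1 window at chr2:79456786-79456886 (minus strand), the Olig2 window at chr16:91225300-91225456 (plus strand) and the Neurod2 window at chr11:98329649-98329895 (minus strand).
Atoh7: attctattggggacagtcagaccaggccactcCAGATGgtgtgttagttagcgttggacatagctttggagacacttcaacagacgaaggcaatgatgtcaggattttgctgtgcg
Neurod1: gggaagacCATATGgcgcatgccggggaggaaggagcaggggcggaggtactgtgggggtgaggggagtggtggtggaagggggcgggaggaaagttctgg
Olig2: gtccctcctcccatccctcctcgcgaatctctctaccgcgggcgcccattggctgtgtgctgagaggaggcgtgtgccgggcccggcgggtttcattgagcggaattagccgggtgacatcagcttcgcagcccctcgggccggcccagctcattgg
Neurod2: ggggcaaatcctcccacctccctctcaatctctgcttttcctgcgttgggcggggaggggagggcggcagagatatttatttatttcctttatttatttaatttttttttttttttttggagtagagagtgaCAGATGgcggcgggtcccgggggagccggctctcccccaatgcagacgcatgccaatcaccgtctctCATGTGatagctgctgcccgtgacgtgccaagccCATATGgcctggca
The 116 bases of Atoh7 hold 1 E-box, CAGATG, a form bound by Neurog and Neurod factors. CANNTG occurs in 40.8% and CAGATG or its reverse CATCTG in 7.03% of 32536 promoter windows cut to that length. The 101 bases of Neurod1 hold 1 E-box, CATATG, found in 1.60% of windows of that length (any CANNTG in 36.5%). The 157 bases of Olig2 hold none, whereas 50.8% of windows that long hold at least 1. The 247 bases of Neurod2 hold 3, of which the first, CAGATG, overlaps a TGACAG, the core bound by TALE homeodomain proteins. Of windows that long, 65.9% hold at least 1 CANNTG and 11.9% at least 3. TGACAG or its reverse CTGTCA occurs in 15.6% of windows of that length. No CANNTG was found in the window of Neurog2 (249 bases) or of Neurod4 (250 bases), whereas 66.1% and 66.2% of windows of these lengths hold at least 1. These are letter matches in short windows.

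Depth ranged from 1625 to 17739 cells and from 2376875 to 141540352 UMIs per library. Neurogenics made up 3.75% to 18.7% of the cells of a library (94 to 1733 cells). P2 MEIS2 replicate 2 stood apart with a median of 992 UMIs per cell. It stayed in the summed counts and left the cell-by-cell analyses, which need 2000 UMIs per cell. Among the libraries, 744 cell barcodes occurred in more than 1, at most 30 in any pair. Barcodes of P2 control 1 and P2 combination 2 begin with the name of the other of these groups, but their Meis1 and Meis2 levels in Neurogenics followed the titles (305 and 573 CPM in the control, 786 and 1374 in the combination). Member calls that change without these libraries, or when they are grouped by barcode starts, are given beside the result. Among 11 neurogenic marker genes, 3 of them members, all 11 were detected in Neurogenics. Their summed level was 2426 CPM in P2 control Neurogenics, against 1201 in progenitors, 1287 in rods and 643 in amacrine cells. In P5 controls it was 1696 CPM, against 800 in progenitors, 873 in rods and 654 in amacrine cells. At P5 the Neurogenics ranged from 1215 to 2480 CPM and overlapped with each of these types, and they held 3279 CPM of Muller glia markers, so the label is less distinct at that age. The cell types were made by the authors from the same counts, so levels across types are descriptions without a test.

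Neurod1 and Neurod4 were by far the most abundant members in Neurogenics. CPM scales a gene's UMIs to the total UMIs of a cell type in a library. Reads come from transcript 3′ ends, so levels need no division by length, though capture can differ between genes. In P2 control Neurogenics the mean was 1466 ± 561 CPM (SD, n = 4 libraries) for Neurod4, 1453 ± 684 for Neurod1, 153.8 ± 73.2 for Atoh7, 93.9 ± 68.2 for Neurog2, 59.5 ± 21.2 for Bhlhe22, 27.4 ± 2.05 for Olig2 and 21.4 ± 7.87 for Neurod2. In that order the neighbours Neurod4 and Neurod1, Atoh7 and Neurog2, Neurog2 and Bhlhe22, and Olig2 and Neurod2 had overlapping intervals of mean ± SD. The order at P5 was Neurod4 (839 ± 218), Neurod1 (600.0 ± 257), Bhlhe22 (98.3 ± 15.5), Neurog2 (75.6 ± 28.1), Neurod2 (28.3 ± 12.4), Olig2 (17.0 ± 4.24) and Atoh7 (7.57 ± 6.56), so Atoh7 went from the third place to the last.

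**Figure D1:**
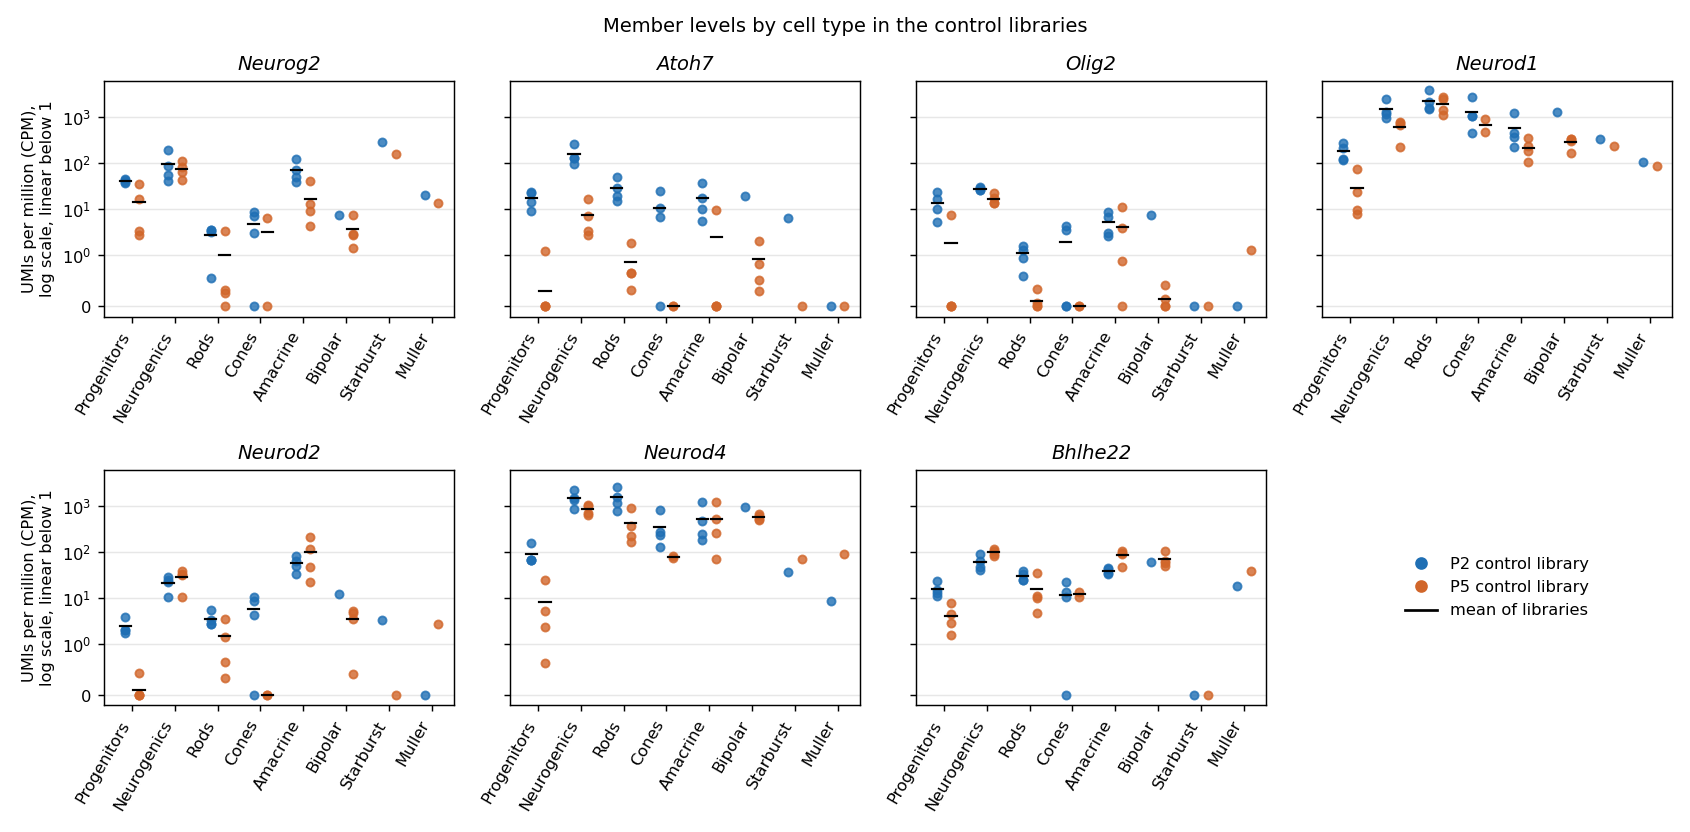
Level of each member per cell type in control libraries, in CPM on an axis that is linear below 1 and logarithmic above, with P2 libraries in blue, P5 libraries in orange and black lines for the means. In P2 controls Neurod1 and Neurod4 sit at or above 756 CPM in Neurogenics and rods, Olig2 stays below 30 everywhere, and Atoh7 points of P5 lie below those of P2 in Neurogenics, progenitors and rods.

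Atoh7 and Olig2 had over 50% of their UMIs in Neurogenics, counted over all libraries. Atoh7 (ENSMUSG00000036816.4, chr10:63099651-63101279, plus strand, mm10, 1 exon) had 60.5% of its 13919 UMIs in Neurogenics, and Olig2 (ENSMUSG00000039830.9, chr16:91225457-91228677, plus strand, 2 exons), a factor known from motor neuron and oligodendrocyte lineages that also marks late retinal progenitors about to divide for the last time, had 56.0% of 4705. Neurog2 (ENSMUSG00000027967.8, chr3:127633135-127635631, plus strand, 2 exons), which activates Notch ligands and neuronal genes, had 36.3% of 21981, with 35.3% in amacrine cells and 24.8% in progenitors. Its level in P2 controls was 93.9 ± 68.2 CPM in Neurogenics, 70.8 ± 36.7 in amacrine cells and 40.6 ± 3.81 in progenitors, and 2.71 ± 1.45 in rods. The library ranges of Neurogenics, amacrine cells and progenitors overlap, and only those of rods lie apart.

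The highest level of Neurog2 was in the small class that the authors call Starburst, amacrine cells that release acetylcholine. P2 control 1 had 292 CPM there (89 UMIs in 29 cells, exact Poisson interval 234 to 359) and P5 control 1 had 154 CPM (45 UMIs in 26 cells, 112 to 206). Only these 2 control libraries had at least 20 such cells, and the intervals cover counting error only. Bhlhe22 had 0 UMIs in both, with exact Poisson upper bounds of 12.1 CPM at P2 and 12.6 CPM at P5.

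Neurog2 and the 4 later factors had most of their UMIs outside Neurogenics. Neurod1 (ENSMUSG00000034701.9, chr2:79452521-79456751, minus strand, 2 exons) had 69.98% of its 626508 UMIs in rods, the photoreceptors of dim light, at 2262 ± 1126 CPM at P2 and 1924 ± 781 at P5. In cones it reached 1301 ± 966 CPM at P2 (4 libraries) and 678 ± 293 at P5 (2 libraries). Neurod1 overlaps Cerkl on its own strand and Gm26755 on the other, so reads of these genes may have been divided differently by the authors' counting. Neurod4 (ENSMUSG00000048015.4, chr10:130268152-130280240, minus strand, 2 exons) had 49.5% of its 330950 UMIs in rods, at 1507 ± 785 CPM at P2 and 415 ± 341 at P5. It was also present in P5 bipolar cells (566 ± 78.8 CPM), the interneurons that receive photoreceptor input.

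Neurod2 (ENSMUSG00000038255.6, chr11:98325415-98329648, minus strand, 2 exons) had its highest mean in amacrine cells, at 56.5 ± 20.4 CPM at P2 and 96.9 ± 81.5 at P5. At P5 the amacrine libraries (22.1 to 204 CPM) overlapped with those of Neurogenics (10.3 to 38.6 CPM). Of its 11112 UMIs, 24.1% were in Neurogenics. Bhlhe22 (ENSMUSG00000025128.7, chr3:18054174-18057517, plus strand, 1 exon) had 34.0% of 25330 UMIs in Neurogenics. At P5 it lay at 98.3 ± 15.5 CPM there, 82.8 ± 25.1 in amacrine and 68.1 ± 25.03 in bipolar cells, against 15.3 ± 13.5 in rods. These P5 levels of Neurogenics, amacrine and bipolar cells overlap.

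Between P2 and P5, Atoh7 almost vanished from control Neurogenics, Neurod1 and Olig2 fell by less, and the other 4 members did not pass the test. In edgeR's quasi-likelihood test on summed counts (Benjamini-Hochberg adjusted over 13745 genes), 3 of 7 members were called at an adjusted p under 0.05, all downward. Of all genes tested, 9.27% were called, 2.60% downward and 6.67% upward. The median log2 fold change was -0.78 over the members and 0.00 over all genes. A sum over a cell type cannot tell fewer expressing cells from less RNA per cell.

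Atoh7 had 131, 97.0, 126.3 and 261 CPM in P2 controls 1 to 4 and 7.16, 3.42, 17.0 and 2.73 CPM in P5 controls 1 to 4. All 4 P5 libraries were far below all 4 P2 libraries, and the highest at P5 was replicate 3. Its log2 fold change was -4.38 (SE 0.49, edgeR adjusted p = 1.7e-05), or 20.8-fold lower at P5. With single libraries left out it ran from -5.17 (without P5 control 3) to -3.99 (without P2 control 4) and was called each time.

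Neurod1 had 1152, 1282, 925 and 2456 CPM at P2 and 667, 221, 739.5 and 773 CPM at P5. The groups did not overlap, with replicate 4 high at P2 and replicate 2 low at P5. The log2 fold change was -1.38 (SE 0.38, edgeR adjusted p = 0.0255), or 2.61-fold lower. Olig2 had 28.2, 25.4, 26.0 and 29.9 CPM at P2 and 13.7, 13.9, 22.7 and 17.6 CPM at P5. These groups did not overlap either, and the P2 libraries were close together. The log2 fold change was -0.78 (SE 0.24, edgeR adjusted p = 0.0444), or 1.72-fold lower. The Olig2 call was lost without TMM scaling (-0.69, SE 0.24, edgeR adjusted p = 0.0855). With single libraries left out it held in 2 of 8 fits (edgeR adjusted p up to 0.126). Library ranges without overlap were thus found for 3 of 7 members, all below, as for 3.24% of all genes (13.2% in either direction).

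Neurod4 had 863, 1441, 1343 and 2217 CPM at P2 and 683, 622, 999 and 1051 CPM at P5. The ranges overlapped through P2 control 1, and the log2 fold change was -0.92 (SE 0.30, edgeR adjusted p = 0.0594). This call depends on the setting, since 5 of 9 alternatives other than leaving out single libraries called Neurod4. Without P2 control 1 and P2 combination 2 its log2 fold change was -1.17 (SE 0.26, edgeR adjusted p = 0.00823), and with these libraries grouped by barcode starts it was -1.03 (SE 0.24, edgeR adjusted p = 0.00678). It was also called by DESeq2 (adjusted p = 0.00859), without the filter on low counts (edgeR adjusted p = 0.0464) and without P2 MEIS2 replicate 2 (edgeR adjusted p = 0.0431). Bhlhe22 had 87.4, 46.1, 40.4 and 64.1 CPM at P2 and 91.0, 81.4, 117 and 104 CPM at P5. The ranges overlapped through P2 control 1, and the log2 fold change was 0.64 (SE 0.23, edgeR adjusted p = 0.0988). It was called, upward, with grouping by barcode starts (0.78, SE 0.22, edgeR adjusted p = 0.0223).

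Neurog2 had 55.9, 86.6, 40.8 and 192 CPM at P2 and 83.4, 43.7, 110.1 and 65.3 CPM at P5, with P2 control 4 far above the rest. Its log2 fold change was -0.41 (SE 0.43, edgeR adjusted p = 0.648) and turned to 0.02 without P2 control 4 and P5 control 3. Neurod2 had 28.8, 21.9, 10.4 and 24.4 CPM at P2 and 32.8, 10.3, 38.6 and 31.6 CPM at P5, with a log2 fold change of 0.30 (SE 0.34, edgeR adjusted p = 0.687). For both genes the ages overlapped widely.

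The age calls other than Atoh7 changed when libraries were left out. Without P2 control 4 and P5 control 3, chosen after the values were seen, Atoh7 alone was called. The log2 fold changes were then -1.09 for Neurod1 (edgeR adjusted p = 0.122) and -0.89 for Olig2 (edgeR adjusted p = 0.0620), with 3 libraries against 3. Leaving out P2 control 4 or P5 control 2 also left 1 call, leaving out P2 controls 2 or 3 or P5 controls 1 or 4 left 2. Leaving out P2 control 1 gave 5, with Neurod4 (-1.14, edgeR adjusted p = 0.0113) and Bhlhe22 (0.82, edgeR adjusted p = 0.0379) added.

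**Figure D2:**
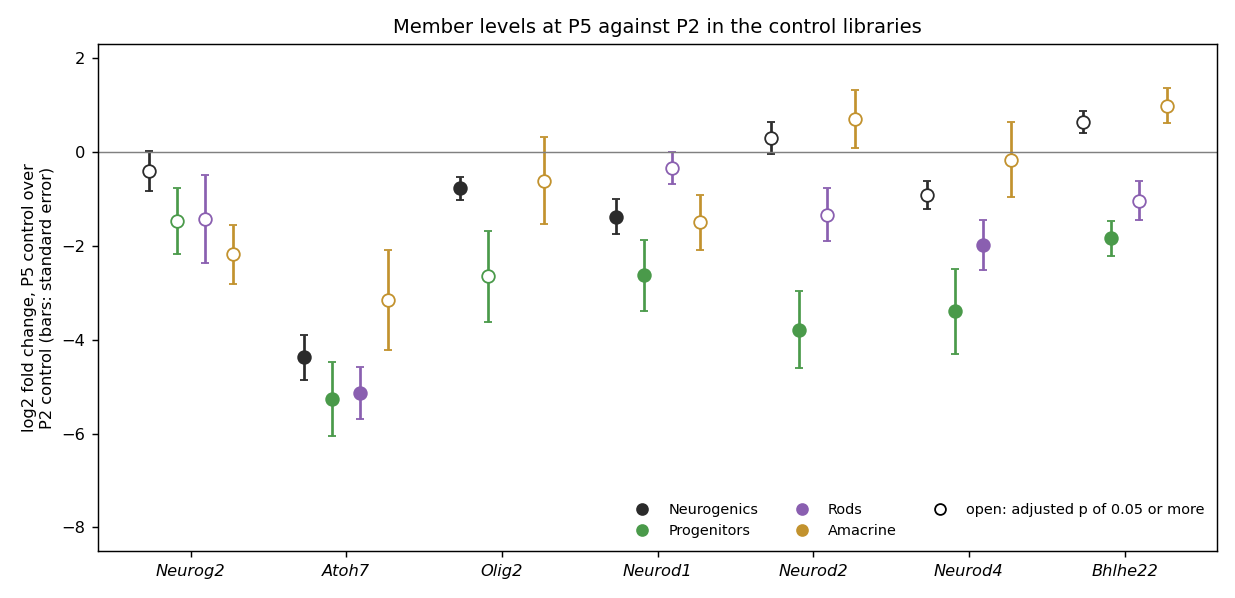
Log2 fold change of each member between P5 and P2 control libraries in 4 cell types, with standard errors as bars and filled points where the edgeR adjusted p was under 0.05. Atoh7 lies at or below -4.38 in Neurogenics, progenitors and rods, and all filled points lie below 0.

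Genes of other retinal types moved with age in the same Neurogenics sums. Of 6 Muller glia genes, 4 of 5 tested rose, and their summed level went from 480 (404 to 614) to 3279 (2612 to 4419) CPM. Of 8 bipolar genes, 5 of 7 tested rose, while their sum was 1222 (769 to 1647) at P2 and 1030 (796 to 1161) CPM at P5, and Vsx1, Grm6 and Scgn were at 0 in P2. The summed level of 9 progenitor genes was 758 (707 to 820) and 1523 (991 to 1760) CPM, with 3 up and 2 down. The 11 neurogenic genes summed to 2426 (1893 to 3634) and 1696 (1215 to 2480) CPM, with 5 down. The amacrine list holds Meis2, which a construct carries. Of its other 8 genes 3 fell, and these 8 summed to 38.4 to 121 CPM at P2 and 19.4 to 46.9 CPM at P5. Both tested starburst genes of 5 rose, with sums of 27.4 to 66.7 and 130 to 180 CPM. Of 3 endothelium genes 1 rose, with sums of 84.7 to 128 and 170 to 349 CPM. The part of these shifts in the members' changes was not tested.

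In progenitors, the dividing cells, the fall took in more members. There 5 of 7 were called by edgeR, all downward, against 17.5% of 14849 genes called and 6.96% called downward. Atoh7 had 23.7, 14.4, 22.3 and 9.07 CPM at P2 and 1.21 CPM in P5 control 3, and was at 0 in the other 3 P5 libraries (log2 fold change -5.26, SE 0.79, edgeR adjusted p = 0.000395). Against the floor of 3 UMIs over those 3 libraries together it was at least 108-fold lower than in the pooled P2 controls. Those libraries were picked because they were at 0. Pooled over all 4 P5 controls Atoh7 had 0.510 CPM, beside 20.4 CPM at P2.

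Neurod4 had 64.5, 66.8, 66.5 and 157 CPM at P2 and 5.21, 2.35, 24.2 and 0.624 CPM at P5 (log2 fold change -3.40, SE 0.91, edgeR adjusted p = 0.0172). Neurod1 had 207, 115, 119 and 272 CPM at P2 and 23.0, 7.77, 75.5 and 9.35 CPM at P5 (-2.63, SE 0.75, edgeR adjusted p = 0.0238). Bhlhe22 had 22.8, 12.995, 14.8 and 11.2 CPM at P2 and 4.56, 2.84, 7.55 and 1.56 CPM at P5 (-1.84, SE 0.37, edgeR adjusted p = 0.0031). In each of these 3 genes all P5 libraries lay below all P2 libraries, and P5 control 3 was the highest P5 library. Without it the log2 fold changes were -4.93 for Neurod4, -3.68 for Neurod1 and -2.28 for Bhlhe22. Neurod4 was not called without P5 controls 1 or 2 (edgeR adjusted p = 0.0527 and 0.0545), nor Neurod1 without P5 controls 1, 2 or 4 (edgeR adjusted p up to 0.0693).

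Markers of other types moved with age in the progenitor sums as well. All 6 Muller glia genes rose (median log2 fold change 2.63), and their sum went from 2048 (1100 to 3208) to 12094 (8940 to 16527) CPM. Of 11 neurogenic genes, 3 of them members, 8 fell and 1 rose, and their sum was 1201 (1140 to 1277) at P2 and 800 (315 to 1279) CPM at P5. Of the 8 amacrine genes other than Meis2, 2 fell, with sums of 38.0 to 112 and 14.6 to 35.6 CPM, and 3 of 5 microglia genes rose, with sums of 3.65 to 8.32 and 5.86 to 37.7 CPM. The progenitor genes themselves summed to 1664 to 2861 and 1461 to 2234 CPM, with 2 of 9 down. The part of these shifts in the members' fall was not tested.

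Neurod2 was low, at 3.86, 2.03, 1.97 and 1.76 CPM at P2, with 5 UMIs in P5 control 3 and 0 in the other P5 controls (-3.79, SE 0.82, edgeR adjusted p = 0.0051). Over those 3 libraries it was at least 16.4-fold lower. Neurog2 fell short of the threshold (44.6, 43.0, 38.1 and 36.6 CPM at P2, 16.7, 3.33, 34.6 and 2.81 CPM at P5, log2 fold change -1.48, SE 0.71, edgeR adjusted p = 0.152), although its ranges did not overlap. Olig2 had 16.3, 9.95, 23.1 and 5.29 CPM at P2, 7.55 CPM in P5 control 3 and 0 in the other 3 P5 controls (-2.65, SE 0.96, edgeR adjusted p = 0.0665), and its ranges overlapped. Over the 3 libraries at 0 it was at least 79.7-fold lower. The ranges were apart in 6 of 7 members, all below, against 6.99% of all genes. Without P5 control 3, all 7 members were called. Without P5 controls 1 or 2, 3 were.

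In rods 6 members passed the filter on low counts, all but Olig2, and 2 were called, against 13.2% of 14786 genes (5.94% downward, 7.24% upward). Atoh7 had 19.3, 14.9, 29.1 and 49.8 CPM at P2 and 0.315, 0.651, 1.86 and 0.646 CPM at P5 (log2 fold change -5.13, SE 0.56, edgeR adjusted p = 8.9e-05). Neurod4 had 756, 1161, 1524 and 2587 CPM at P2 and 219, 162, 909 and 369 CPM at P5 (-1.98, SE 0.53, edgeR adjusted p = 0.0202). Atoh7 was the 1 member of the 6 whose P5 libraries all lay below the P2 libraries, as did 6.39% of genes, and the Neurod4 ranges overlapped through P5 control 3. Neurod1, its close relative, had a log2 fold change of -0.34 (SE 0.35, edgeR adjusted p = 0.579) in the same cells. Without P5 control 3, 4 members were called in rods, and 1 was without P2 control 4 or without P5 controls 2 or 4. The Neurod4 fold change in rods was -2.72 without P5 control 3, and it was not called without P2 control 4 (-1.56) or without P5 controls 1, 2 or 4 (edgeR adjusted p up to 0.0750 over these 4).

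In amacrine cells no member was called by edgeR, where 0.397% of 13097 genes were called (0.0458% downward). At an unadjusted p under 0.05 there were 4 members of 7, beside 8.90% of all genes, and DESeq2 called 1. Neurog2 had 71.4, 39.1, 50.5 and 122 CPM at P2 and 9.01, 4.39, 41.3 and 12.7 CPM at P5 (log2 fold change -2.18, SE 0.62, edgeR adjusted p = 0.183). Bhlhe22 had 45.0, 43.2, 34.9 and 33.5 CPM at P2 and 46.7, 104, 87.4 and 92.7 CPM at P5 (0.99, SE 0.38, edgeR adjusted p = 0.425). The Bhlhe22 ranges were apart, as in 3.52% of genes. Without P5 control 3, 2 members were called.

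Other bHLH genes were read from 3 lists. In control Neurogenics between P2 and P5, 9 of 13 listed partners and relatives were tested in edgeR, of which 1 rose and 2 fell. Of all genes tested there, 1274 of 13745 were called in either direction. Ptf1a, the factor for amacrine and horizontal fates, fell from 9.99 to 0.123 CPM. Bhlhe23, a relative of Bhlhe22, rose from 0.0141 to 11.9 CPM. The E proteins Tcf3, Tcf4 and Tcf12 had log2 fold changes of 0.22, 0.19 and -0.14 and were not called (edgeR adjusted p = 0.347, 0.735 and 0.790). The list's median was -0.03.

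Of 11 inhibitors, 4 rose in Neurogenics and 0 fell, with a median log2 fold change of 1.22 beside 0.00 for all genes. In the same test 1274 of 13745 genes were called in either direction. The 4 that rose were Id3 (3.19, SE 0.53), Hes1 (2.83, SE 0.73), Hey2 (1.26, SE 0.33) and Id4 (1.22, SE 0.35), with edgeR adjusted p between 0.000624 and 0.0336. Hes1, Id3 and Hey2 are also known from progenitors and Muller glia, whose summed markers rose in these sums as given above. For the 9 progenitor markers only the sum rose, as their median log2 fold change was -0.45, with 3 up and 2 down. In progenitors 1 of 11 inhibitors rose, Bhlhe40 (2.77, SE 0.62), and 1 fell, Hes6 (-2.01, SE 0.39). Among all genes tested there, 2602 of 14849 were called in either direction, a share near that of these inhibitors. Hes6 stands on this list as a Hes family gene, but is known as an antagonist of Hes1 that favours neurogenesis, so its fall is not that of an inhibitor. In rods, where 1949 of 14786 genes were called in either direction, 0 of 9 tested rose and 2 fell, Hes5 (-2.45, SE 0.60) and Hes6 (-1.51, SE 0.37). The medians of the tested inhibitors were 0.21 in progenitors and -0.62 in rods.

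Of 18 known proneural targets, 17 were tested in Neurogenics, and 1 rose and 6 fell (median -0.60), beside 1274 of 13745 genes called in either direction. Among those that fell were Prdm1, a repressor that favours photoreceptors over bipolar cells (-2.49, SE 0.36), the Notch ligand Dll3 (-2.14, SE 0.31), the neuronal RNA-binding gene Elavl3 (-2.73, SE 0.43) and the Notch modifier Mfng (-0.99, SE 0.17). Cbfa2t3, a corepressor, rose (2.07, SE 0.54). In progenitors 11 of 16 tested targets fell and 2 rose (Rassf4 0.76 and Btg2 1.49), with a median of -1.81 beside -0.04 for all genes. In rods 10 of 18 fell and 0 rose. Of all genes, 2602 of 14849 were called in progenitors and 1949 of 14786 in rods, in either direction. Dll3 fell in all 3 types (-3.61 in progenitors and -3.54 in rods).

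No member was called by edgeR in any comparison of a MEIS construct with control. These were run at both ages in Neurogenics, progenitors, rods and amacrine cells and at P5 in bipolar cells, and called between 0.00% and 0.0404% of the genes tested. In progenitors that share was 0.0135% for any MEIS and the combination at P2 and the combination at P5, and 0.00673% for MEIS1 at both ages and MEIS2 at P5. In Neurogenics the mean of the 3 construct groups (any MEIS) differed from control in 0 of 7 members at P2, where edgeR called 0 of 13745 genes (0.00%), and in 0 of 7 at P5, where it called 1 (0.00728%). At an unadjusted p under 0.05 there were 1 member at P2 (10.7% of all genes) and 0 at P5 (1.64%), and DESeq2 called 0 members at either age. DESeq2 called 207 genes at P2, so this count of all genes depends on the tool. All comparisons within an age share the same 4 control libraries. The log2 differences in Neurogenics lay between -0.64 and 0.28 at P2 and between -0.57 and 0.15 at P5. The P5 difference less the P2 difference lay between -0.40 and 0.36, with 0 members called. For no member were the MEIS libraries apart from the controls, as they were for 1.25% of genes at P2 and 0.466% at P5.

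Neurod4 was the member with an unadjusted p under 0.05 at P2. Its levels were 972 and 1340.5 CPM with MEIS1, 1086 and 1085 CPM with MEIS2 and 802 and 1302 CPM with the combination. These lay inside the control range of 863 to 2217 CPM, apart from the first combination library. The log2 difference was -0.64 (SE 0.27, edgeR adjusted p = 0.391). It was called when P2 control 1 and P2 combination 2 were left out (-0.999, SE 0.25, edgeR adjusted p = 0.0313, with 786 genes called) and when these libraries were grouped by their barcode starts (-0.86, SE 0.21, edgeR adjusted p = 0.0215, with 1053 genes called). With the latter grouping the P2 combination alone was also called for Neurod4 (-1.14, SE 0.30, edgeR adjusted p = 0.0471, with 433 genes called). Without P2 control 4 the difference was smaller and not called (-0.35, edgeR adjusted p = 0.799).

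Olig2 had 35.1 and 34.8 CPM with MEIS1, 46.6 and 21.9 CPM with MEIS2 and 35.9 and 46.3 CPM with the combination at P2. In 5 of these 6 libraries it was above all 4 controls, but the log2 difference was 0.28 (SE 0.22, edgeR adjusted p = 0.681). It turned to -0.046 when P2 control 1 and P2 combination 2 were grouped by barcode starts.

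At P5 the 2 combination libraries lay above all 4 controls for Atoh7, Neurod1 and Neurod4 without passing the test. Separation of 2 libraries of a construct from 4 controls was not scored over all genes, so it has no background rate. In edgeR 2 of 7 members, Atoh7 and Neurod1, had an unadjusted p under 0.05 for the combination, beside 4.18% of all genes. These 2 libraries differed from each other. Their Neurogenics held 1138 and 365 CPM of Meis1, 2153 and 616 CPM of Meis2 and 47.1 and 106 CPM of Bhlhe22. Bipolar cells numbered 53 of 4501 and 246 of 2493 cells, beside 307 to 964 in controls of 1959 to 6292 cells. Atoh7 had 21.5 and 19.4 CPM with the combination, 0.700 and 7.15 CPM with MEIS1 and 7.73 and 4.74 CPM with MEIS2, beside 2.73 to 17.0 CPM in controls. Its log2 difference for the combination was 1.39 (SE 0.53, edgeR adjusted p = 0.890). Neurod1 had 1436 and 953 CPM with the combination, 450.4 and 186 CPM with MEIS1 and 546 and 379.7 CPM with MEIS2, beside 221 to 773 CPM in controls (1.04 for the combination, SE 0.44, edgeR adjusted p = 1.00). Neurod4 had 1280 and 1096 CPM with the combination, 616 and 443 CPM with MEIS1 and 503 and 532 CPM with MEIS2, beside 622 to 1051 CPM in controls. The combination was thus above and each single construct below all controls, with log2 differences of 0.54 (SE 0.36), -0.63 (SE 0.37) and -0.75 (SE 0.37), none of them called (edgeR adjusted p = 1.00 each). In the 2 combination libraries Muller glia markers summed to 2231 and 2015 CPM, beside 2612 to 4419 CPM in controls, the 8 amacrine markers other than Meis2 to 23.4 and 32.1 CPM, beside 19.4 to 46.9 CPM, and progenitor markers to 742 and 1732 CPM, beside 991 to 1760 CPM. Their part in the members' levels was not tested. Neurog2 with MEIS2 had 33.5 and 34.5 CPM, below all 4 controls (-1.20, SE 0.57, edgeR adjusted p = 1.00). In this P5 combination contrast 0.0218% of genes were called. No gene of the 3 lists was called by edgeR in a MEIS comparison of Neurogenics. At an unadjusted p under 0.05 the highest count was 7 of 17 targets, in the P5 combination (median log2 difference 0.36), where 4.18% of all genes had such a p.

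**Figure D3:**
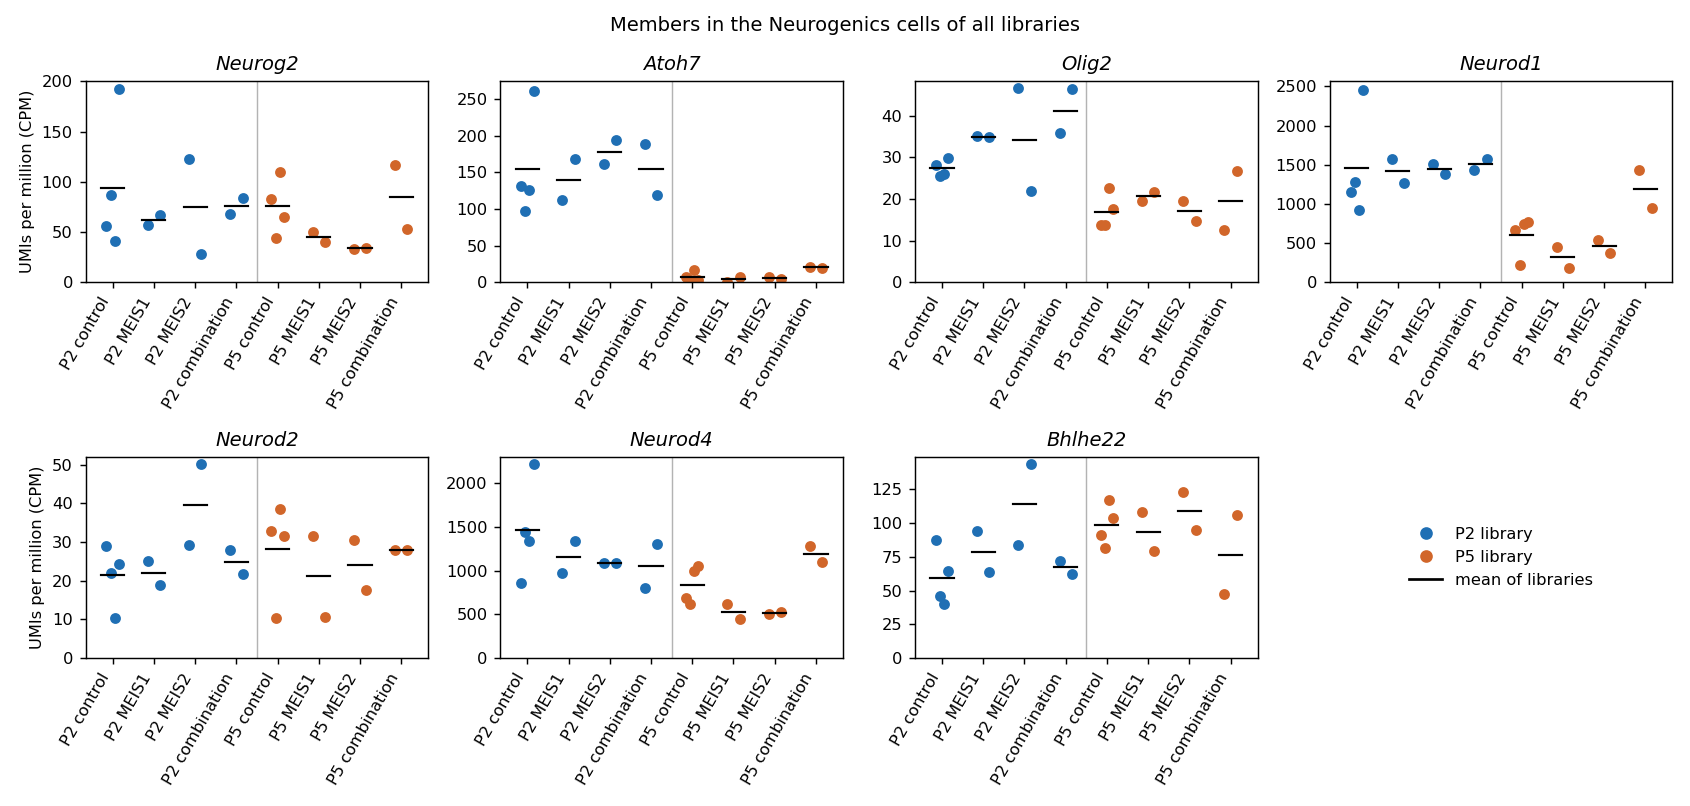
Level of each member in Neurogenics of all 20 libraries, in CPM, by group, with P2 in blue and P5 in orange and black lines for group means. The ranges of the 6 libraries with MEIS constructs and of the 4 controls of the same age overlap in all 7 members. For Neurod4 at P5, however, no MEIS library lies inside the control range. The 2 P5 combination libraries lie above all P5 controls for Atoh7, Neurod1 and Neurod4, a separation not scored over all genes.

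Shares of cells with a UMI were also compared between ages, and 0 of 7 passed after adjustment. In 4 of 7 the libraries did not overlap, but shares were not scored over all genes, so this count has no background rate. Each Neurogenics cell was thinned to 2000 UMIs, which kept 3424 of 3516 P2 control cells and 1688 of 1711 P5 control cells. A UMI of Atoh7 was found in 16.5%, 12.8%, 17.4% and 24.3% of cells of P2 controls 1 to 4 and in 0.722%, 0.581%, 2.63% and 0.524% of P5 controls 1 to 4. Neurod1 was found in 77.5%, 80.6%, 72.4% and 84.7% at P2 and in 60.3%, 32.0%, 52.5% and 52.4% at P5. For both genes every P5 library was below every P2 library.

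Olig2 had means of 4.93% ± 0.393 (SD, n = 4) at P2 and 2.43% ± 1.00 at P5, and Neurod4 75.2% ± 3.75 and 57.2% ± 4.29, again with no overlap. In these 4 genes the two-sided exact permutation p was 0.0286, the smallest that 4 against 4 libraries allow. After adjustment over the 7 members it was 0.05, which does not pass a threshold of under 0.05. No member could pass unless more than these 4 reached that smallest p. Neurog2 (12.1% ± 7.02 and 7.26% ± 1.23, exact permutation p = 0.171, adjusted 0.2), Bhlhe22 (10.6% ± 3.67 and 14.1% ± 1.86, p = 0.143, adjusted 0.2) and Neurod2 (4.30% ± 1.88 and 4.52% ± 2.17, p = 0.8286) overlapped between ages.

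Without thinning, the pooled shares at P2 and P5 were 33.6% and 4.15% for Atoh7, 15.3% and 10.4% for Olig2, 90.8% and 67.3% for Neurod1, 86.1% and 66.5% for Neurod4, 22.9% and 18.9% for Neurog2, 14.4% and 19.1% for Neurod2 and 33.5% and 44.1% for Bhlhe22. The median depth was 7089 UMIs per cell at P2 and 11042 at P5. Free RNA can give a UMI to a cell that does not express a gene. In rods of P2 controls (median 3800 UMIs), thinned alike, the share was 4.20% for Atoh7, 0.462% for Neurog2, 0.180% for Olig2, 0.682% for Neurod2 and 5.45% for Bhlhe22. In P5 rods (median 3836.5 UMIs) it was 0.148%, 0.197%, 0.0288%, 0.269% and 2.47% in the same order. In progenitors it was 14.0% and 3.79% for Neurod1 and 7.89% and 1.80% for Neurod4 at P2 (median 8318 UMIs) and P5 (15995). All were below the share in Neurogenics of the same age. In amacrine cells at P2 the share was 0.797% for Olig2 and 12.3% for Neurog2. The Neurog2 share in Neurogenics was thus above that in rods and not above that in amacrine cells, where its level was also high.

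A Neurogenics cell held fewer different members at P5. The mean number of the 7 members with a UMI per thinned cell was 1.99, 1.99, 1.84 and 2.32 in P2 controls and 1.502, 1.06, 1.47 and 1.40 in P5 controls. The means were 2.04 ± 0.203 and 1.36 ± 0.201 (exact permutation p = 0.0286, the smallest possible), and the groups did not overlap. This mean equals the sum of the 7 shares as fractions, so it restates them, and its p was not adjusted. Cells without any member made up 2.36% to 8.63% of the cells of a P2 control and 17.0% to 37.2% of a P5 control. Without thinning the difference was -0.411 and the exact permutation p 0.171. When P2 control 4 and P5 control 3 were left out it was -0.620, with a p of 0.1, the smallest possible with 3 against 3.

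With MEIS constructs the number of members per cell was 2.06 ± 0.0906 at P2 (n = 5, control 2.04 ± 0.203, exact permutation p = 0.810) and 1.34 ± 0.283 at P5 (n = 6, control 1.36 ± 0.201, p = 0.924). None of the 7 shares passed the test at P2 (lowest exact permutation p = 0.0635 for Olig2, 6.22% ± 1.21 with MEIS and 4.93% ± 0.393 in controls, adjusted 0.444) or at P5 (lowest adjusted p = 0.8286, permutation test).

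Some pairs of members were not spread independently over Neurogenics cells of the controls. The number of cells with both of 2 members was set beside the number expected if the members were independent within a library, and given as log2((observed + 0.5) / (expected + 0.5)). Cells and types come from the same counts, so this is a description. At P2, 12 of 21 pairs had at least 5 expected cells in every library, and at P5, 5 pairs. Near 0 at P2, with libraries on both sides, were Neurod1 with Neurod2 (0.12 ± 0.20) and with Bhlhe22 (0.033 ± 0.11). So were Neurod4 with Neurod2 (0.0065 ± 0.21) and with Bhlhe22 (-0.07 ± 0.12). At P5, Bhlhe22 was above 0 in 4 of 4 libraries with Neurod1 (0.30 ± 0.21) and with Neurod4 (0.51 ± 0.23).

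Neurog2 was found with Neurod1 and Neurod4 less often than independence gives. With Neurod1 its log2 ratio was -0.42, -0.50, -0.44 and -0.27 in P2 controls and -0.60, -1.04, -0.21 and -0.59 in P5 controls, below 0 in all 8 libraries. With Neurod4 the means were -0.73 ± 0.24 at P2 and -1.14 ± 0.59 at P5, again below 0 in 8 of 8. The size depended on depth. With other thinning or none, Neurod1 ran from -1.08 (1000 UMIs) to -0.17 (no thinning) at P2, and Neurod4 was -0.41 at P2 and -0.36 at P5 without thinning. Pairs of Neurog2 with Neurod2 and Bhlhe22 had under 5 expected cells in at least 1 library of each age and are not read. Neurog2 and Atoh7, both early factors, shared 49 cells at P2 where 76.4 were expected, with a mean of -0.73 ± 0.45 and 0 of 4 libraries above 0.

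Atoh7 went the other way with Neurod1 and Neurod4, while its pairs with Neurod2 and Bhlhe22 had too few expected cells. At P2 its log2 ratio was 0.17 ± 0.04 with Neurod1 (539 cells, 484 expected) and 0.23 ± 0.03 with Neurod4 (535 cells, 453 expected), above 0 in 4 of 4 libraries. Without thinning these were 0.11 and 0.18. Olig2 had -0.45 ± 0.31 with Neurod4 at P2, below 0 in 4 of 4. With Neurod1 it had -0.22 ± 0.16, but 0.0027 without thinning (3 of 4 libraries above 0) and -0.51 at 1000 UMIs, so this pair has no direction that holds across depths. Neurod1 and Neurod4 were found together in 2190 P2 cells (1979 expected) and 709 P5 cells (485 expected), with log2 ratios of 0.14 ± 0.05 and 0.53 ± 0.17, above 0 in 8 of 8.

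Across ages, 5 pairs could be compared and 0 were called after adjustment over the 5, with an exact permutation test over 4 and 4 libraries. At an unadjusted p under 0.05 there were 2. Neurod1 with Neurod4 and Neurod4 with Bhlhe22 (-0.07 ± 0.12 at P2 and 0.51 ± 0.23 at P5) did not overlap between ages (exact permutation p = 0.0286 each, adjusted 0.0714). The highest ratio a pair can reach is set by the share of its more frequent member, which was higher at P2. With thinning to 1000 UMIs, 3 pairs were compared and all 3 called. When the 10% of cells with most UMIs per library, where doublets would be, were left out, 3 of 5 were called. As 0.0286 is the smallest p possible between ages, no pair can pass adjustment alone, and pairs are called only when others reach that p too. These counts of calls therefore move in steps. With MEIS at P2, Atoh7 with Neurod4 had 0.09 ± 0.08 (n = 5) beside 0.23 ± 0.03 in controls (exact permutation p = 0.0317, adjusted over 9 pairs 0.214), and Atoh7 with Neurod1 had 0.09 ± 0.04 beside 0.17 ± 0.04 (p = 0.0476, adjusted 0.214). Neither passed after adjustment.

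**Figure D4:**
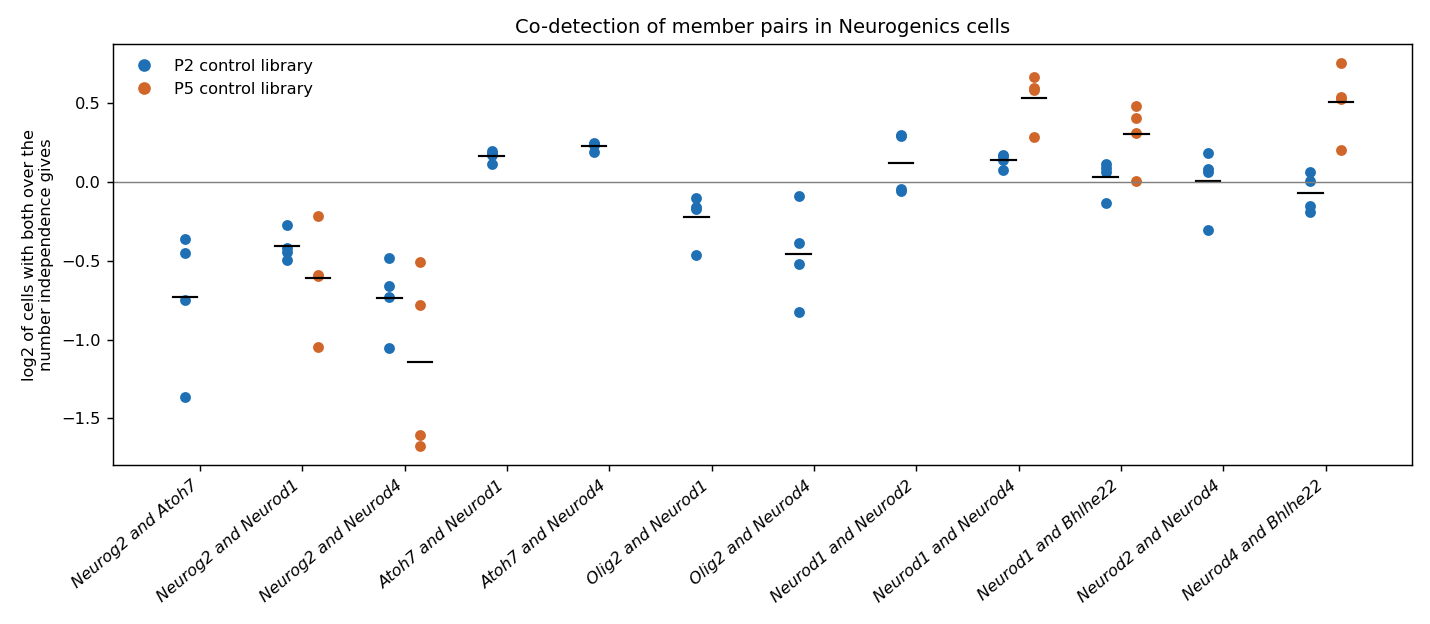
Log2 ratio of observed to independent co-detection for member pairs in Neurogenics cells of control libraries, 1 point per library, P2 in blue and P5 in orange, with black lines for means and 0 for independence. Pairs of Neurog2 with Neurod1 and Neurod4 lie below 0 in all 8 libraries, and Neurod1 with Neurod4 lies above 0 in all 8.

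Cells with Neurog2 carried more Dll1, Gadd45g and Hes6 and less Crx and Prdm1. At P2, after thinning, the Notch ligand Dll1 had a UMI in 25.8% of cells with Neurog2 and 12.03% of cells without. Gadd45g, a growth arrest gene, was found in 46.5% and 31.3%, and Hes6 in 78.6% and 64.0%. These 3 were above independence in 4 of 4 libraries. Crx, the photoreceptor homeobox gene, was found in 20.4% and 39.97%, and Prdm1 in 18.5% and 33.9%, below independence in 4 of 4. Otx2, the homeobox gene of photoreceptor and bipolar precursors, was found in 82.7% and 83.5%, above independence in 2 of 4.

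Atoh7 cells at P2 showed the reverse for Crx and Prdm1 but not for Otx2 (81.0% and 83.4%, above independence in 2 of 4 libraries). Crx was found in 45.8% of them and 35.8% of the others, Prdm1 in 37.5% and 30.8%, and Ccnd1, the cyclin of dividing progenitors, in 6.002% and 12.6%, each to the same side in 4 of 4 libraries. Olig2 cells held more Otx2 (89.7% and 82.9%), but less Crx (30.2% and 38.0%).

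At P5 Neurod1 and Neurod4 split the Neurogenics cells most sharply. Otx2 was found in 85.1% of cells with Neurod1 and 37.9% without, and in 85.7% with Neurod4 and 29.8% without. Ccnd1 was found in 7.90% with Neurod1 and 42.2% without, and in 6.79% with Neurod4 and 48.9% without. Cells with Neurod4 also held more Isl1, a gene of ON bipolar and other neurons (25.6% and 5.98%) and more Insm1 (22.2% and 5.90%). Bhlhe22 cells at P5 held more Otx2 (81.0% and 58.6%). Neurod2 had enough expected cells for 3 markers at P2, and of these Sox4 was above independence in 4 of 4 libraries (93.8% and 83.9%).

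The genes whose control levels followed each member most closely were found by Pearson's r of log2(CPM + 1) over 47 sums of library and cell type, among 7344 genes. The points share libraries, depth and the authors' types, so r is given without a test. They were Brinp2 (r = 0.80) for Neurog2, Cmtm7 (0.80) for Atoh7, Mybl1 (0.87) for Olig2, Amer2 (0.95) for Neurod1, Trp53i11 (0.88) for Neurod2, Otx2 (0.87) for Neurod4 and Ppp1r14a (0.79) for Bhlhe22. Next, in the same order of the first 6 members, were Chn2, Rorb, Zc3h12c, Ankrd33b, Khdrbs1 and Foxp4, and after these Epb41l4a, Smad2, Miat, Insm1, Tubb3 and Rcor2. Mapk8ip1 was also among the nearest to Bhlhe22. Among pairs of members the highest r was 0.81, between Neurod1 and Neurod4, followed by 0.68 between Olig2 and Atoh7 and 0.67 between Olig2 and Neurog2. Neurog2 and Neurod1 had -0.12.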

How the data were processed

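The authors deposited raw UMI counts per gene and cell, together with a table that gives each cell's library, cell type, UMI count and mitochondrial UMIs as a percent of all its UMIs. Cells were sorted for GFP and reads aligned with Cell Ranger to mm10 plus a GFP locus, per the design text. Seurat 5 is named per the submitters' processing notes. The Cell Ranger version, annotation and cell filters are not given in the sources used here. Summed counts equalled the deposited UMIs in 79009 of 79009 cells.

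The members and gene lists were chosen with earlier results of these data known. Named genes were the 7 members, called genes of 3 fixed lists (up to 4 in each direction by smallest p), the E proteins, marker genes of retinal types, and the 3 genes most correlated with each member. Some genes that this rule names are not reported here, and counts over lists include them. Positions are from GENCODE on mm10.

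Counts were summed per library and the authors' cell type, with at least 20 cells. Printed CPM used library totals without further scaling. Tests used edgeR 4.0.16 (R 4.3.3) with filterByExpr, TMM and 1 quasi-likelihood fit of all 8 groups, two-sided, with Benjamini-Hochberg adjustment within a comparison and a threshold of 0.05. The scripts were tested on simulated counts. Single cells were thinned to 2000 UMIs, and libraries compared with two-sided exact permutation tests (scipy 1.17.1), whose smallest p is 0.0286 for 4 against 4, 0.0159 for 5 against 4 and 0.00952 for 6 against 4. No doublet caller was run. Alternatives were DESeq2 1.42.0, no TMM, no filter, at least 50 cells, fewer libraries, other depths of thinning, grouping by barcode starts and, chosen after seeing the data, leaving out P2 control 4 with P5 control 3 or the 10% of cells with most UMIs. Replicate numbers were not used as a block in the main fit.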

Additional observations from a re-analysis of the deposited data

Results flagged for a closer look

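Dixon's test for a library far from the rest was applied to 44 sets of member values in 4 control libraries, where chance alone flags about 1 in 20, and picked out 6. In progenitors of P2 controls, Neurod2 stood at 3.86 CPM in replicate 1 (the nearest library had 2.03), and Neurod4 at 157 CPM in replicate 4 (nearest 66.8). In progenitors of P5 controls, replicate 3 held Atoh7 at 1.21 CPM, Olig2 at 7.55 CPM and Neurod2 at 0.434 CPM, while the other 3 libraries were at 0 for each. With 3 libraries at 0 any value above 0 in the fourth is picked out, so these 3 cannot be read against the chance rate. The share of Neurogenics cells with an Atoh7 UMI was also high in P5 control 3, at 2.63% beside 0.722% in the nearest library. All 4 of these P5 values come from the same library. Their source was not tested.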

How the results depend on the processing

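Between ages, members called in Neurogenics (3) became 5 with grouping by barcode starts and 1 without P2 control 4 and P5 control 3. In rods (2) they became 1 with control libraries only and 4 without those 2 libraries, and in amacrine cells (0) 1 with DESeq2 and 1 without those 2 libraries. With each library left out in turn, the counts ran from 1 to 5 in Neurogenics, 3 to 7 in progenitors, 1 to 4 in rods and 0 to 2 in amacrine cells. Under any MEIS at P2 in Neurogenics the count of 0 became 1 without P2 control 1 and P2 combination 2 and 1 with grouping by barcode starts, as for the P2 combination with that grouping (1). The log2 fold change of Neurog2 between ages turned to 0.0166 without P2 control 4 and P5 control 3 (-0.66 to 0.24 with libraries left out in turn).

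In edgeR fits of any MEIS, some small differences changed sign in Neurogenics. At P2 without TMM, Neurod1 was 0.0049 and Atoh7 0.0177. With the replicate block within age, P2 values were 0.15 for Neurod1, 0.0105 for Neurog2, 0.35 for Atoh7 and -0.0522 for Neurod2 (Neurod4, without a change of sign, went from -0.64 to -0.15), and P5 values 0.42 for Neurod1, 0.025 for Bhlhe22, 0.031 for Neurod4 and 0.21 for Neurod2. The labels do not say what a replicate number marks. The difference between replicates 1 and 2 within a group was correlated between groups over genes. The correlations were -0.147 to 0.482 (P2) and 0.0641 to 0.487 (P5), and control replicates 3 and 4 did not enter. At P2 the control correlated at 0.388 with MEIS1, -0.0925 with MEIS2 and 0.482 with the combination. At P5 it correlated with the construct groups at 0.293 to 0.487. Except for MEIS2 at P2, this is a hint of shared numbers from the data and not from the design. The block changed no member's call, moved the genes called in the P5 combination from 3 to 122, and could not be fitted to the ages. Without P2 control 4 and P5 control 3, P2 values were 0.19 for Neurod1, 0.11 for Neurog2 and 0.20 for Atoh7, and Neurod1 at P5 was 0.0091. With barcode starts Olig2 at P2 was -0.0460. With libraries left out in turn, P2 values ran from -0.34 to 0.20 (Neurod1), -1.12 to 0.12 (Neurog2), -0.37 to 0.20 (Atoh7), -0.0526 to 0.25 (Neurod2) and -0.0334 to 0.37 (Olig2), and P5 values from -0.36 to 0.0600 (Neurod1), -0.32 to 0.0323 (Bhlhe22), -0.86 to 0.90 (Atoh7) and -0.0358 to 0.32 (Olig2). Between ages they ran from -0.54 to 0.10 for Neurod1 in rods, and in amacrine cells from -1.06 to 0.67 (Neurod4), -0.0266 to 1.05 (Neurod2) and -2.39 to 0.0018 (Olig2).

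In cells, the age difference in members per cell was -0.411 without thinning, -0.694 without P2 control 1 and P2 combination 2, -0.620 without P2 control 4 and P5 control 3, and -0.743 to -0.580 with libraries left out in turn, where the smallest possible p is above 0.05. For any MEIS, with libraries left out in turn, this difference lay between -0.0400 and 0.120 at P2 and between -0.119 and 0.0691 at P5. At P5 it was 0.111 without thinning and 0.0167 without P2 control 4 and P5 control 3. The Neurod2 share difference was -0.237 when thinned to 1000 UMIs (-0.644 to 1.25 with libraries left out). Member pairs called between ages rose from 0 to 3 when thinned to 1000 UMIs and to 3 without the deepest 10% of cells, and pairs under any MEIS at P5 were 0 to 1 with libraries left out.

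Counts of all genes called moved more than those of members. DESeq2 gave 207 beside 0 for any MEIS at P2 in Neurogenics, 474 beside 0 for MEIS2 at P2, 35 beside 3 for the P5 combination, 158 beside 0 in rods at P2, 562 beside 6 for MEIS2 at P2 in progenitors and 192 beside 52 for age in amacrine cells. The cause was not tested. The depth of P2 MEIS2 replicate 2 and 2 libraries per construct limit the construct comparisons.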
